A study of Homo sapiens with 45 samples.

Results

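The comparison set MM134 cells that had lost most of their estrogen receptor transcript while estradiol was present against MM134 cells that were never given estradiol. It asked whether removing the receptor returns the transcriptome to the unstimulated state, carries it past that state, or leaves it short. The 6 libraries were taken by their labels, 3 named siER_E2 and 3 named siNT, out of 15 MM134 libraries and 45 in the series, and all 17744 genes that passed the low-count filter were examined. MM134 (MDA-MB-134-VI) is an established line from an invasive lobular breast carcinoma, a tumour type that usually expresses the estrogen receptor. In every group the cells were kept for 3 days in medium with charcoal-stripped serum, which removes steroid hormones, and were then transfected with a small interfering RNA (siRNA, a duplex that directs the degradation of a matching transcript). After 24 h the siER_E2 cells, transfected with an siRNA against the estrogen receptor, received 100 pM estradiol (E2). The siFOXA1_E2 and siMDC1_E2 cells received siRNAs against FOXA1 or MDC1 and the same E2, and the siNT_E2 cells a non-targeting siRNA and E2. The siNT cells received the non-targeting siRNA and vehicle, 0.01% ethanol, and RNA was collected 24 h later in all groups. A single cell line under a transient knockdown was thus measured at a single time, and the number of siRNA sequences used per target was not given in the sources used here.

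Estrogen receptor alpha, the product of ESR1, is a nuclear receptor that binds DNA when estradiol occupies its ligand pocket. It raises the transcription of genes such as TFF1, GREB1 and PGR, drives luminal breast cancer cells into the cell cycle through targets such as MYC and CCND1, and lowers many other genes, among them genes linked to quiescence. Hormone deprivation leaves the receptor protein in place without its ligand, whereas knockdown removes the protein and leaves the ligand. FOXA1 opens chromatin for the receptor, and MDC1 is a scaffold that gathers repair factors at DNA breaks.

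The 6 compared libraries held 24.8 to 33.8 M counts. Processed pseudogenes, intronless copies of expressed genes, took 0.494% of the counts in siER_E2 replicate 3 and 0.151% to 0.158% in the other 5, and their part in the results was measured by leaving that library out. Mitochondrially encoded transcripts took 8.83% to 9.46% of the counts in siER_E2 and 9.66% to 10% in siNT. Of the luminal epithelial markers 24 of 25 were measured. None of the 10 immune and none of the 10 endothelial markers passed the low-count filter, and of 10 fibroblast markers only COL1A1 did, at 108 CPM in siER_E2 and 127 CPM in siNT. Nothing in the labels ties the replicates to different cultures, and the p-values therefore rest on a spread that may be technical.

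ESR1 (ENSG00000091831.23, GRCh38 chromosome 6, 151656691 to 152129619, plus strand) was measured at 68.9, 66.4 and 62.3 CPM (read counts scaled to the TMM-adjusted library total) in siER_E2, at 582, 570 and 568 CPM in siNT_E2, and at 366, 341 and 324 CPM in siNT. The siER_E2 level was 19.2% of the siNT level, with no overlap between the groups. The log2 difference, siER_E2 minus siNT, was -2.38 with a standard error (SE) of 0.043 (adjusted p = 6.36e-20). The siFOXA1_E2 and siMDC1_E2 libraries also held less ESR1 than siNT_E2, at 117 ± 3.93 and 129 ± 0.39 CPM against 573 ± 7.36 CPM (SD, n = 3 each). FOXA1 was slightly higher in siER_E2, at 578, 584 and 583 CPM against 528, 528 and 543 CPM in siNT (log2 difference 0.13, SE 0.027, adjusted p = 0.000805). MDC1 was lower, at 130, 114 and 117 CPM in siER_E2 and 183, 189 and 186 CPM in siNT (log2 difference -0.62, SE 0.046, adjusted p = 6.69e-10), although no siRNA against it was used in those cells.

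Receptor loss left the transcriptome near, but not at, the unstimulated state. Of 17744 genes, 5740 (32.3%) were called at an adjusted p below 0.05 by edgeR's quasi-likelihood test, 3047 (17.2%) higher and 2693 (15.2%) lower in siER_E2. Most differences were small. For 13983 genes (78.8%) the 95% interval of the difference lay within 2-fold in either direction, and for 11046 (62.3%) it lay within 1.5-fold. Called differences of 2-fold or more numbered 143 genes higher (0.806%) and 186 lower (1.05%). In the same fit, E2 itself (siNT_E2 minus siNT) gave 9648 called genes (54.4%), 539 of them 2-fold higher (3.04%) and 1054 2-fold lower (5.94%). The knockdown against E2-treated cells (siER_E2 minus siNT_E2) gave 10141 called genes (57.2%). These 3 comparisons share libraries pairwise, so their counts are set side by side and no overlap between them was computed. Of the 143 genes 2-fold higher, 48 were processed pseudogenes and 64 were protein-coding, and without siER_E2 replicate 3 the count was 90. Without siER_E2 replicate 1 or 2 it was 307 or 294, without siNT replicate 1 it was 95, and the largest differences below are therefore taken from protein-coding genes of at least 10 CPM.

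TFF1, GREB1, PDZK1, RET and CD34, which E2 induces, lost most of their E2-treated level and stopped above the unstimulated one, by 1.41-fold in RET to 3.28-fold in TFF1 and CD34. TFF1 (chromosome 21, 42362282 to 42366594, minus strand), a secreted mucosal peptide and the best known estrogen-induced gene, stood at 8.78, 9.15 and 7.96 CPM in siER_E2, 62.7, 67.2 and 65.4 CPM in siNT_E2, and 2.76, 2.5 and 2.64 CPM in siNT. The receptor-depleted libraries all lay above the unstimulated ones and far below the E2-treated ones, and the log2 difference from siNT was 1.71 (SE 0.10, adjusted p = 2.7e-11). GREB1 (chromosome 2, 11482341 to 11642788, plus strand), a receptor cofactor and target, stood at 66.2, 61.6 and 64.3 CPM in siER_E2, 566, 576 and 568 CPM in siNT_E2, and 45.2, 45.5 and 43.1 CPM in siNT (log2 difference 0.52, SE 0.041, adjusted p = 1.43e-09). PDZK1, a scaffold for membrane transporters, stood at 2, 2.8 and 2.97 CPM in siER_E2, 62.7, 70.3 and 65.2 CPM in siNT_E2, and 1.4, 1.6 and 1.55 CPM in siNT (log2 difference 0.76, SE 0.16, adjusted p = 0.000866). RET, a receptor tyrosine kinase, followed the same order, with 116, 112 and 118 CPM in siER_E2, 402, 417 and 412 CPM in siNT_E2, and 83.7, 80 and 82.4 CPM in siNT (log2 difference 0.50, adjusted p = 5.1e-10). In all 4 genes the siER_E2 and siNT libraries did not overlap, which holds for 21.9% of all genes in the upward direction. CD34, a cell surface sialomucin, was at most 0.516 CPM in siER_E2 and 0.184 CPM in siNT, against 10.5 to 12.2 CPM in siNT_E2 (log2 difference 1.72, SE 0.42, adjusted p = 0.00238).

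The cell-cycle targets of the receptor had smaller log2 differences from siNT. CCND1, which encodes cyclin D1, stood at 8204, 8024 and 8189 CPM in siER_E2, 14690, 14370 and 14220 CPM in siNT_E2, and 7244, 6848 and 6850 CPM in siNT. Its log2 difference was 0.22, beside 1.05 for siNT_E2 minus siNT (SE 0.025, adjusted p = 2.81e-07). MYC, a growth-promoting transcription factor, stood at 19.3, 18.2 and 20.8 CPM in siER_E2, 108, 107 and 106 CPM in siNT_E2, and 19.6, 15.8 and 14.4 CPM in siNT. The siER_E2 and siNT libraries overlapped for MYC, and its call (log2 difference 0.23, adjusted p = 0.0199) was lost without siER_E2 replicate 3, siNT replicate 2 or siNT replicate 3 (adjusted p = 0.0987, 0.115 and 0.145). CXCL12, a chemokine, did not differ detectably, with 17.1, 15.5 and 17.3 CPM in siER_E2 and 14.9, 16.6 and 19.4 CPM in siNT. Its log2 difference was -0.02 with a 95% interval of -0.18 to 0.13, while siNT_E2 stood at 67.1, 65.5 and 67 CPM. PGR, the progesterone receptor gene, had too few counts for the test, with 2, 1 and 3 counts in siER_E2, 12, 6 and 6 in siNT_E2 and 0 in every siNT library.

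**Figure D1:**
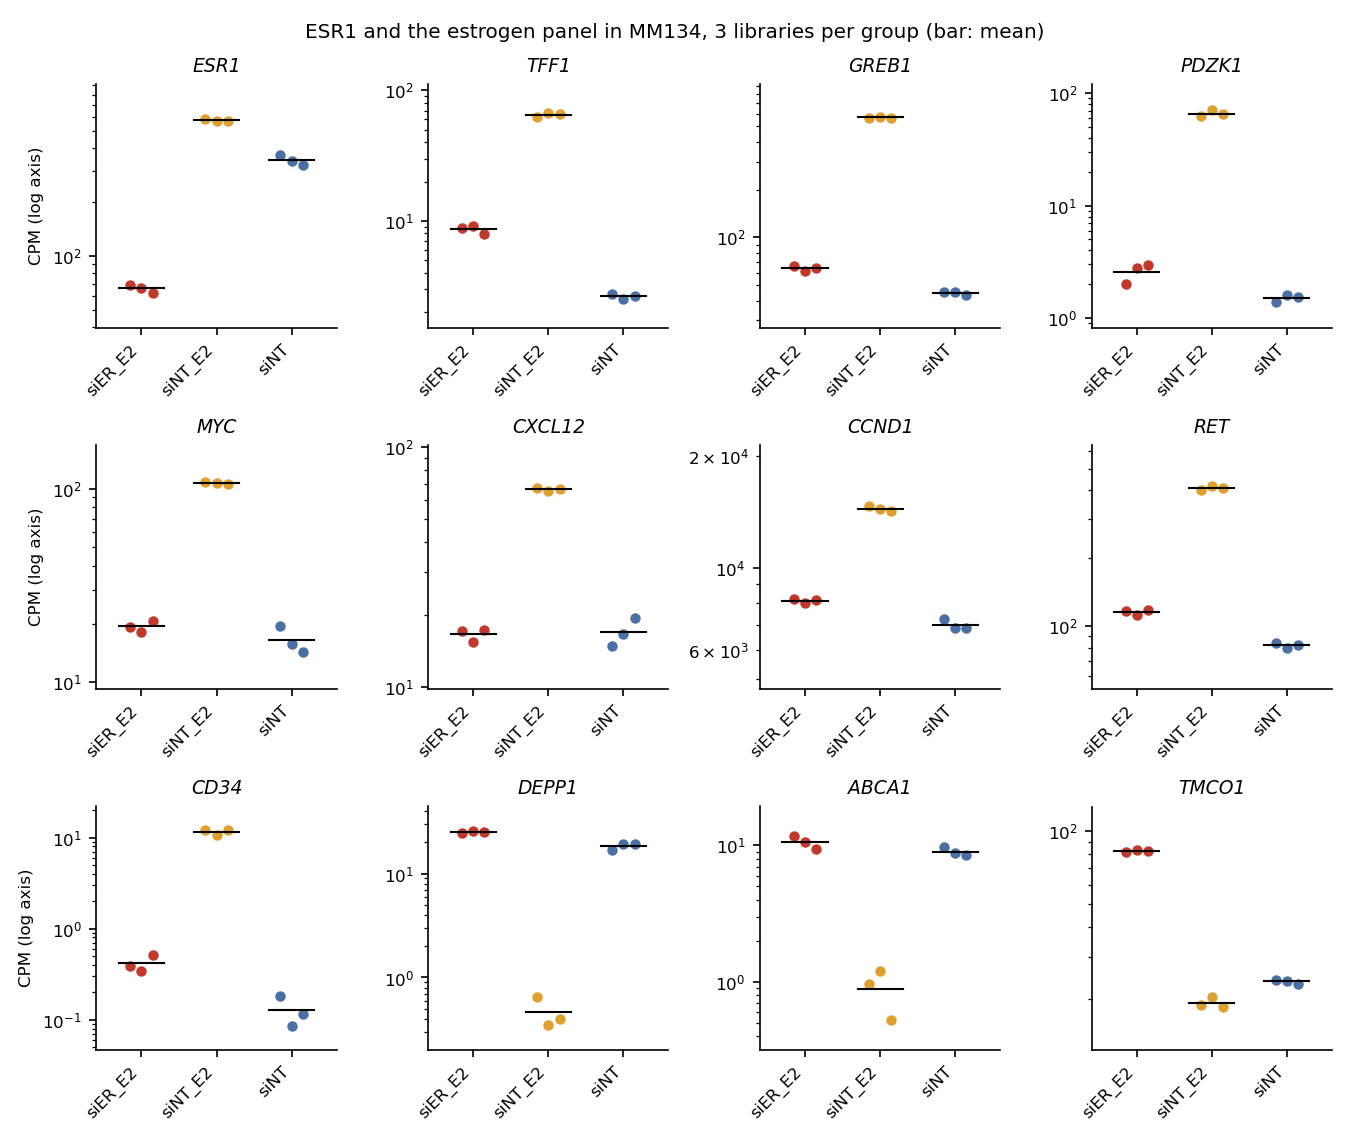
CPM (log axis) of ESR1 and 11 panel genes in each MM134 library of siER_E2, siNT_E2 and siNT, with a bar at the mean of 3 libraries. For TFF1, GREB1, PDZK1 and RET the siER_E2 libraries lie between the other groups, DEPP1 lies above siNT, and TMCO1 is high in siER_E2 alone of these 3 groups.

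Among panel genes that E2 lowers, DEPP1, a FOXO target, went past the unstimulated level. It stood at 24.3, 25.5 and 25.1 CPM in siER_E2, 0.651, 0.351 and 0.401 CPM in siNT_E2, and 16.8, 19.4 and 19.2 CPM in siNT (log2 difference 0.44, SE 0.093, adjusted p = 0.000854). All siER_E2 libraries lay above all siNT libraries. ABCA1, which exports cholesterol from cells, stood at 11.8, 10.6 and 9.45 CPM in siER_E2 and 9.68, 8.8 and 8.57 CPM in siNT, and these overlapped (log2 difference 0.23, 95% interval -0.06 to 0.53, adjusted p = 0.23). TMCO1, a calcium channel of the endoplasmic reticulum, was higher in siER_E2 than in both other groups. It stood at 82.2, 83.8 and 82.7 CPM in siER_E2, 18.9, 20.5 and 18.7 CPM in siNT_E2, and 24.2, 23.8 and 23.2 CPM in siNT, the highest log2 difference of any named gene above 10 CPM (1.80, SE 0.041, adjusted p = 2.76e-18).

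The promoter windows of 3 panel genes are shown because their levels ended in different places: PDZK1 above siNT, CXCL12 at siNT and DEPP1, which E2 lowers, above siNT. Each window runs from 250 bases before to 50 bases after the RefSeq gene start (GRCh38.p14, minus strand, written 5′ to 3′ on that strand). Capitals mark GGTCA or its reverse complement TGACC, a single arm of the estrogen response element.
PDZK1, chr1:145707351-145707650: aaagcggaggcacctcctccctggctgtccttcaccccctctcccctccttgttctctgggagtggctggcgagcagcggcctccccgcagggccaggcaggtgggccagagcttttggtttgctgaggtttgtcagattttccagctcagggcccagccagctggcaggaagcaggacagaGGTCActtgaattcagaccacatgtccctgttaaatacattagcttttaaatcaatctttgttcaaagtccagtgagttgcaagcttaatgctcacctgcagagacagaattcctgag
CXCL12, chr10:44385048-44385347: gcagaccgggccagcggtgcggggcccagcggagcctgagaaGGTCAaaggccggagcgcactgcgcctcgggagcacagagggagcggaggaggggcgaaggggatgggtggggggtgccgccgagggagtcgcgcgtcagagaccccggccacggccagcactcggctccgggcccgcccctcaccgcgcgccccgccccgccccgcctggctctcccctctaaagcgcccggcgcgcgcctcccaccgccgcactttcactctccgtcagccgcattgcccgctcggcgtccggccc
DEPP1, chr10:44978760-44979059: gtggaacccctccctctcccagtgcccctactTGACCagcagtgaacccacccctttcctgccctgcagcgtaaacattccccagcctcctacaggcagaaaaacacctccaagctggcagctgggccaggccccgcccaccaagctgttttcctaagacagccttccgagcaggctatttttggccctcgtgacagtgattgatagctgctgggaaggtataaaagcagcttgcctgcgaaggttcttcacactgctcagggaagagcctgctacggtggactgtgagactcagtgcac
Each of the 3 windows held 1 arm, and none held the full palindrome GGTCANNNTGACC. An arm on either strand was found in 37.7% of all 27305 RefSeq promoter windows and in 34.3% of the 11037 windows matched to the genes tested. The full palindrome was found in 18 of all windows. Windows were matched for 116 of 163 genes that E2 induced in both other lines and for 49 of 76 that it repressed. Of these, 40.5% and 16.3% held an arm. The letters in these windows say nothing about binding elsewhere, since the receptor is known to act largely through distant enhancers.

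A list of 55 measured estrogen-induced genes came from general knowledge. It includes panel genes, among them TFF1 and CXCL12, and is therefore no separate check of the panel. On the list, 28 genes were higher in siER_E2 than in siNT, 8 were lower and 19 were not called, against 17.2% higher and 15.2% lower among all genes. The median log2 difference was 0.22, beside 0.01 over all genes, while the same list had a median of 1.59 for siNT_E2 minus siNT. Higher members included UGCG, which makes glucosylceramide, at 69, 70.5 and 69.1 CPM in siER_E2, 98.5, 97.5 and 94 CPM in siNT_E2, and 44.1, 43.2 and 42.7 CPM in siNT. IGFBP4, which binds insulin-like growth factors, stood at 282, 249 and 272 CPM in siER_E2, 1212, 1257 and 1233 CPM in siNT_E2, and 192, 183 and 176 CPM in siNT. CA12, a carbonic anhydrase, stood at 618, 566 and 587 CPM in siER_E2, 763, 750 and 755 CPM in siNT_E2, and 429, 423 and 405 CPM in siNT. Each of these 3 genes kept part of its E2-treated level after receptor knockdown.

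Other members of the induced list matched the unstimulated state closely. SIAH2, a ubiquitin ligase, stood at 48.5, 50.9 and 53.6 CPM in siER_E2, 162, 164 and 163 CPM in siNT_E2, and 50.7, 50.2 and 50.1 CPM in siNT. Its log2 difference was 0.02 with a 95% interval of -0.06 to 0.10. For RARA, a retinoic acid receptor, the interval was -0.12 to 0.07, with 89, 82.5 and 84.4 CPM in siER_E2 and 94.2, 83.4 and 83 CPM in siNT. The lower members included AREG, a ligand of the EGF receptor, at 16.6 CPM in siER_E2, 137 CPM in siNT_E2 and 21.3 CPM in siNT on average (log2 difference -0.35), and MYBL1, a transcription factor (-0.27). THBS1, an adhesive matrix glycoprotein, was also lower (log2 difference -0.41, SE 0.0295, adjusted p = 5.01e-10), although E2 did not change it detectably in MM134 (log2 difference 0.05, adjusted p = 0.147).

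The list of 27 measured estrogen-repressed genes was split, with 9 higher, 10 lower and 8 not called and a median of -0.03. Of all genes 17.2% were higher and 15.2% lower. TXNIP, an inhibitor of thioredoxin that also limits glucose uptake, stood at 214, 214 and 210 CPM in siER_E2, 58.9, 58.3 and 53.8 CPM in siNT_E2, and 220, 211 and 216 CPM in siNT (95% interval of the log2 difference -0.09 to 0.04). ERBB3, a partner of HER2, likewise stood at 585, 570 and 577 CPM in siER_E2 and 548, 572 and 572 CPM in siNT, against 258 to 270 CPM in siNT_E2. Both genes were indistinguishable from siNT within these intervals, ERBB3 between -0.03 and 0.09. IL1R1, the interleukin 1 receptor, remained lower, at 241, 236 and 230 CPM in siER_E2, 88, 83.4 and 87.3 CPM in siNT_E2, and 313, 316 and 318 CPM in siNT (log2 difference -0.42, SE 0.030, adjusted p = 2.64e-10). IGFBP5, listed as repressed, was higher with E2 in these cells, at 53.6, 51.1 and 51.8 CPM in siNT_E2. It stood at 12.1, 11.3 and 11.3 CPM in siER_E2, below the 22.6, 19.1 and 19.5 CPM of siNT (log2 difference -0.81, SE 0.076, adjusted p = 2.36e-08). The number of higher members was 5 without siNT replicate 1 or replicate 2.

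Sets of E2-responsive genes were also taken from the other lines of the series, MM330 (lobular) and HCC1428 (ductal), whose libraries do not enter the MM134 comparison. E2 raised 2.38% of the genes 2-fold in MM330 and 7.4% in HCC1428, and lowered 1.51% and 4.95%. Of 188 genes raised 2-fold in both lines, 163 were measured in MM134. In siER_E2 against siNT, 45 of these were higher, 25 lower and 93 not called, beside 17.2% higher and 15.2% lower of all genes, with a median log2 difference of 0.06. Of 96 genes that E2 lowered 2-fold in both lines, 76 were measured, of which 36 were lower and 2 higher, with a median of -0.34. For siNT_E2 minus siNT the medians were 0.99 in the induced set and -1.34 in the repressed set. The median of the induced set thus lay near 0 while a part of its genes stayed higher. The median of the repressed set lay below 0, with 13 of its 76 genes called at least 2-fold lower, beside 1.05% of all genes. Both counts and medians come from genes that passed the filter in MM134, and with a 1.5-fold cut in the other lines the repressed set gave 95 lower and 26 higher of 262, with a median of -0.18.

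Named members show both ends of these sets. PGLYRP2, a peptidoglycan amidase, stood at 8.58, 6.5 and 7.77 CPM in siER_E2, 143, 141 and 144 CPM in siNT_E2, and 2.69, 2.22 and 3.14 CPM in siNT (log2 difference 1.54, SE 0.11, adjusted p = 3.22e-10). In the repressed set, DDIT4, an inhibitor of mTORC1 signalling, was a higher member, at 28.4, 30 and 30 CPM in siER_E2, 8.06, 8.01 and 6.65 CPM in siNT_E2, and 19.2, 19.7 and 19 CPM in siNT (log2 difference 0.61, SE 0.062, adjusted p = 9.43e-08). MS4A7, a tetraspan membrane protein, was the extreme in the other direction among abundant members. It stood at 39.2, 42.1 and 39.7 CPM in siER_E2, 43.3, 40.4 and 37.7 CPM in siNT_E2, and 124, 122 and 116 CPM in siNT, so that receptor-depleted and E2-treated libraries overlapped and both lay below siNT. Its annotated span overlaps that of MS4A14 on the same strand, which had a log2 difference of -1.57, and how reads were divided between them is not known. SPINK8, a protease inhibitor gene, stood at 0.721, 0.605 and 0.226 CPM in siER_E2, 0.368, 0.527 and 0.641 CPM in siNT_E2, and 2.87, 3.4 and 2.44 CPM in siNT.

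**Figure D2:**
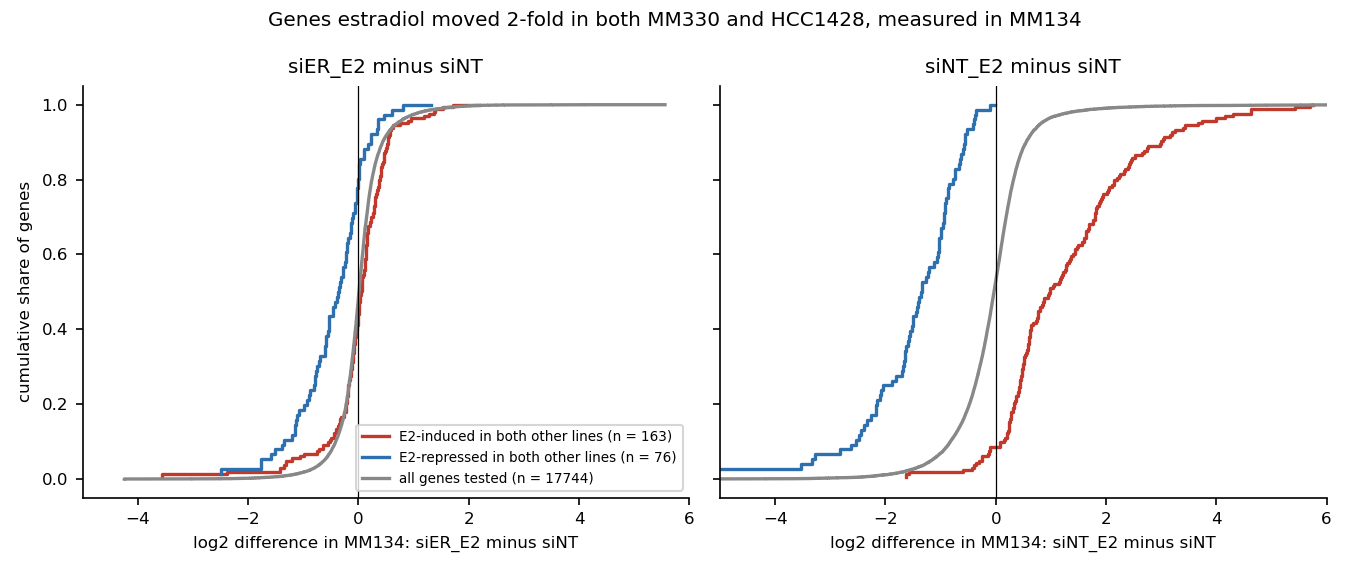
Cumulative share of genes (y axis) by log2 difference in MM134 (x axis) for siER_E2 minus siNT and for siNT_E2 minus siNT, in the 163 genes E2 induced and the 76 it repressed in both other lines, and in all 17744 genes tested. In siER_E2 minus siNT the induced set has a median of 0.06 and runs close to all genes, while the repressed set has a median of -0.34 and stays to their left.

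The growth programs that E2 raises in MM134 came back to, or slightly above, the unstimulated level. Of all genes 17.2% were higher and 15.2% lower in siER_E2 than in siNT. For siNT_E2 minus siNT 54.4% of all genes were called in either direction. Of 30 ribosome biogenesis genes 13 were higher in siER_E2, 1 was lower and the median log2 difference was 0.10, beside 0.72 for siNT_E2 minus siNT, where all 30 were higher. Without siER_E2 replicate 1, 8 were higher. NOP58, a box C/D snoRNP core protein, stood at 65.8, 65.5 and 64.1 CPM in siER_E2, 81, 83.7 and 86.2 CPM in siNT_E2, and 59, 55 and 55 CPM in siNT. DKC1, the pseudouridine synthase dyskerin, had a log2 difference of 0.32 (SE 0.045, adjusted p = 8.41e-06). Of 16 heat shock genes 7 were higher and none lower at this threshold, with a median of 0.05 beside 0.63 with E2. HSPB1, a small chaperone and known estrogen target, had a log2 difference of 0.43 (SE 0.030, adjusted p = 2.11e-10). Of 39 DNA replication genes 13 were higher, 4 lower and 22 not called, with a median of 0.02 beside 0.48 with E2, where 38 were higher. RRM2, a ribonucleotide reductase subunit, stood at 251, 257 and 246 CPM in siER_E2, 320, 319 and 312 CPM in siNT_E2, and 208, 203 and 213 CPM in siNT. The 4 lower genes were FEN1, ORC1, MCM6 and RRM1, with log2 differences of -0.51, -0.16, -0.13 and -0.08. FEN1, the flap endonuclease, stood at 125, 127 and 129 CPM in siER_E2, 270, 275 and 279 CPM in siNT_E2, and 186, 181 and 174 CPM in siNT (SE 0.031, adjusted p = 2.7e-11).

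Mitotic genes went below the unstimulated level. None of the 30 genes was higher in siER_E2 than in siNT, beside 17.2% of all genes. Of the 30 genes 24 were lower, beside 15.2% of all genes, and 6 were not called. The median log2 difference was -0.20, and leaving out single libraries gave 19 to 23 lower. For siNT_E2 minus siNT the same list had 12 higher, 5 lower and a median of 0.09. ANLN, a scaffold of the cleavage furrow, stood at 132, 126 and 125 CPM in siER_E2, 251, 248 and 246 CPM in siNT_E2, and 224, 221 and 219 CPM in siNT (log2 difference -0.79, SE 0.028, adjusted p = 3.19e-15). MKI67, the Ki-67 proliferation marker, averaged 614 CPM in siER_E2 and 973 CPM in siNT (log2 difference -0.66, SE 0.051, adjusted p = 1.02e-09). BIRC5, which encodes survivin of the chromosomal passenger complex, stood at 85.7, 86.3 and 86.6 CPM in siER_E2, 151, 159 and 160 CPM in siNT_E2, and 131, 123 and 120 CPM in siNT (log2 difference -0.53, SE 0.035, adjusted p = 1.28e-10). KIF20A, a kinesin of cytokinesis, had the order siER_E2 below siNT_E2 below siNT, with 102, 96.6 and 97.1 CPM, then 114, 110 and 113 CPM, then 155, 141 and 151 CPM. For 22 of the 30 genes all siER_E2 libraries lay below all siNT libraries, beside 19.7% of all genes.

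Most mitotic genes were not lower in the other lines. In MM330 9 of the 30 genes were higher and 1 lower in siER_E2 than in siNT, with a median of 0.25 (percent called in MM330: 8.66% higher, 11.5% lower). The lower gene was MKI67, with a log2 difference of -0.66 in MM134 and -0.60 in MM330, and ANLN, at -0.23 in MM330, was not called there. In HCC1428 29 were higher and none lower, with a median of 0.93 (11.7% higher, 9.5% lower). The siNT_E2 levels of the list in HCC1428 are not given here. NEK2 and SKA1, which are outside the list, averaged 6.28 and 7.34 CPM in siER_E2 of HCC1428. They averaged 19.6 and 28.3 CPM in its siNT_E2, and 2.22 and 2.35 CPM in its siNT. Both genes were thus above siNT but below the E2-treated level. The difference of the effects was tested as an interaction over all 45 libraries, where it was called lower in MM134 for 27 of 30 genes against MM330 (3.72% of all genes) and for 29 of 30 against HCC1428 (6.24%). The effect on DNA replication genes was also called lower in MM134, for 26 of 39 and 36 of 39, and higher for none. Of all genes 5.36% and 3.37% were called higher. In MM134 itself the replication genes were near siNT, with 13 higher, 4 lower and a median of 0.02. In MM330 27 of 39 were higher than siNT (median 0.48), and in HCC1428 39 of 39 (median 0.75), with none lower in either line. In bulk libraries, fewer dividing cells and less mitotic RNA per cell cannot be told apart. Ribosome biogenesis had no called difference in either test.

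**Figure D3:**
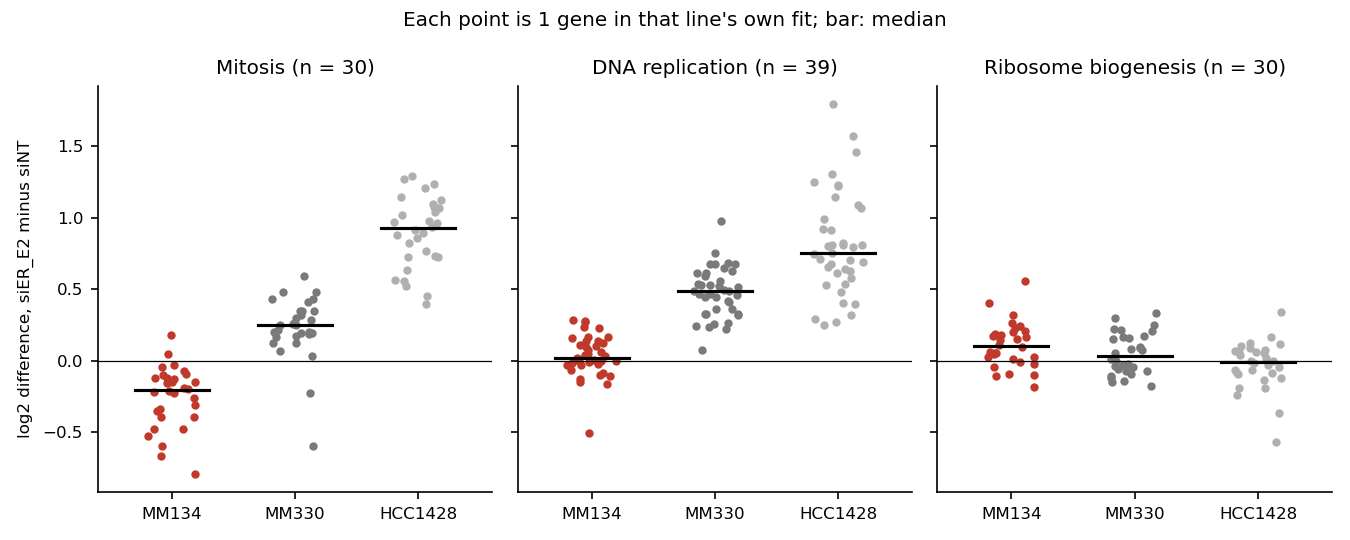
Log2 difference of siER_E2 minus siNT (y axis) for each gene of the Mitosis, DNA replication and Ribosome biogenesis lists in MM134, MM330 and HCC1428, each from the fit of that line, with a bar at the median. Mitotic genes have medians of -0.20 in MM134, 0.25 in MM330 and 0.93 in HCC1428, while ribosome biogenesis stays near 0 in all 3 lines.

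Part of the genes tied to FOXO factors, which promote quiescence when growth signalling is low, stood above the unstimulated level. Of 29 measured, 11 were higher, 4 lower and 14 not called in siER_E2, beside 17.2% higher and 15.2% lower of all genes, with a median of 0.10, against -0.68 for siNT_E2 minus siNT. PINK1, a mitochondrial quality-control kinase, stood at 97, 92.1 and 102 CPM in siER_E2, 37.4, 39.9 and 41.5 CPM in siNT_E2, and 72.8, 70.8 and 69.6 CPM in siNT (log2 difference 0.45, SE 0.040, adjusted p = 1.01e-08). FOXO4 itself stood at 44.5, 43.8 and 43.5 CPM in siER_E2 and 34.4, 30.7 and 33.8 CPM in siNT. BCL2L11, which encodes the pro-apoptotic protein BIM, was lower, at 69.1, 74.6 and 74.7 CPM in siER_E2 and 93.9, 89.8 and 91 CPM in siNT (log2 difference -0.33, SE 0.038, adjusted p = 5.69e-07). For 10 of the 29 genes the siER_E2 libraries lay above all 12 other MM134 libraries, beside 4.31% of all genes. CDKN1A, which encodes the cyclin-dependent kinase inhibitor p21 and belongs to the p53 target list, was also higher, at 155, 158 and 156 CPM in siER_E2, 59, 59.5 and 62 CPM in siNT_E2, and 119, 117 and 121 CPM in siNT (log2 difference 0.39, SE 0.0305, adjusted p = 1.35e-09). CDKN1A was also high with the other targeting siRNAs. In unscaled read counts it had 4468 to 4826 in siFOXA1_E2, 4833 to 5117 in siMDC1_E2 and 1547 to 2085 in siNT_E2. Whether its rise depends on the receptor was not tested. The p53 target list as a whole was split, with 5 higher and 5 lower of 18.

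Lipid genes differed in part. Of 24 cholesterol synthesis genes 9 were higher, 2 lower and 13 not called, beside 17.2% higher and 15.2% lower of all genes, with a median of 0.09 beside 0.42 with E2. ACAT2, the first step of the pathway, had a log2 difference of 0.33 (SE 0.033, adjusted p = 5.72e-08). Among 12 genes of the oxysterol receptor LXR and lipid efflux, 6 were higher, 2 lower and 4 not called. NR1H3, which encodes LXR alpha, stood at 6.26, 5.11 and 5.42 CPM in siER_E2 and 3.46, 3.29 and 2.87 CPM in siNT (log2 difference 0.80, SE 0.15, adjusted p = 0.000251).

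Markers of cell identity had no common direction, and their counts are to be read against the 17.2% higher and 15.2% lower of all genes. Of 24 luminal epithelial markers 5 were higher, 8 lower and 11 not called, with a median of 0.01. ESRP1, an epithelial splicing regulator, was higher at 191, 196 and 190 CPM in siER_E2 against 127, 134 and 130 CPM in siNT, while ELF3, an epithelial transcription factor, was lower at 23, 23.5 and 24 CPM against 32.4, 33.9 and 32.5 CPM. Of 20 epithelial adhesion genes 5 were higher and 9 lower. CTNNB1, which encodes beta-catenin, rose to 119, 124 and 120 CPM in siER_E2, against 72.2, 73.8 and 68.1 CPM in siNT (log2 difference 0.76, SE 0.041, adjusted p = 3.01e-12). CTNNB1 was also high with the other targeting siRNAs. In unscaled read counts it had 4984 to 5295 in siFOXA1_E2, 2824 to 3143 in siMDC1_E2 and 1463 to 2194 in siNT_E2. Whether its rise depends on the receptor was not tested. Of 31 nuclear receptors 5 were higher, a share near that of all genes, 9 lower and 17 not called. VDR, the vitamin D receptor, stood at 31.9, 31.7 and 33.9 CPM in siER_E2, 56.9, 55.1 and 54.9 CPM in siNT_E2, and 59.5, 56.7 and 60.4 CPM in siNT (log2 difference -0.85, SE 0.039, adjusted p = 2.05e-13). Receptor cofactors were balanced, with 9 higher and 9 lower of 33. NCOA4 was higher (log2 difference 0.53) and MED1, a Mediator subunit, was lower (-0.41), and both were called.

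The remaining lists showed no common direction or rested on few genes. Among all genes 17.2% were higher and 15.2% lower, and several of these lists exceeded both shares. Of 34 DNA damage response genes 7 were higher and 5 lower, of 21 genes of the unfolded protein and amino acid stress responses 8 and 4, of 21 hypoxia and glycolysis genes 5 and 4, of 15 BCL2 family genes 3 and 4, of 21 growth factor signalling genes 7 and 4, of 17 ion channels 6 and 4, of 17 basal and mesenchymal genes 2 and 4, and of 24 interferon genes 1 and 2. DNAJB9, a chaperone of the endoplasmic reticulum, was nevertheless lower at 33.9, 37 and 34.4 CPM in siER_E2 against 62.6, 56.3 and 60.3 CPM in siNT (log2 difference -0.77, SE 0.049, adjusted p = 6.13e-11). Of 13 mitochondrially encoded genes 8 were lower and none higher, with a median of -0.14. That count was 3, 5 and 4 without siER_E2 replicate 2, siNT replicate 1 and siNT replicate 3.

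**Figure D4:**
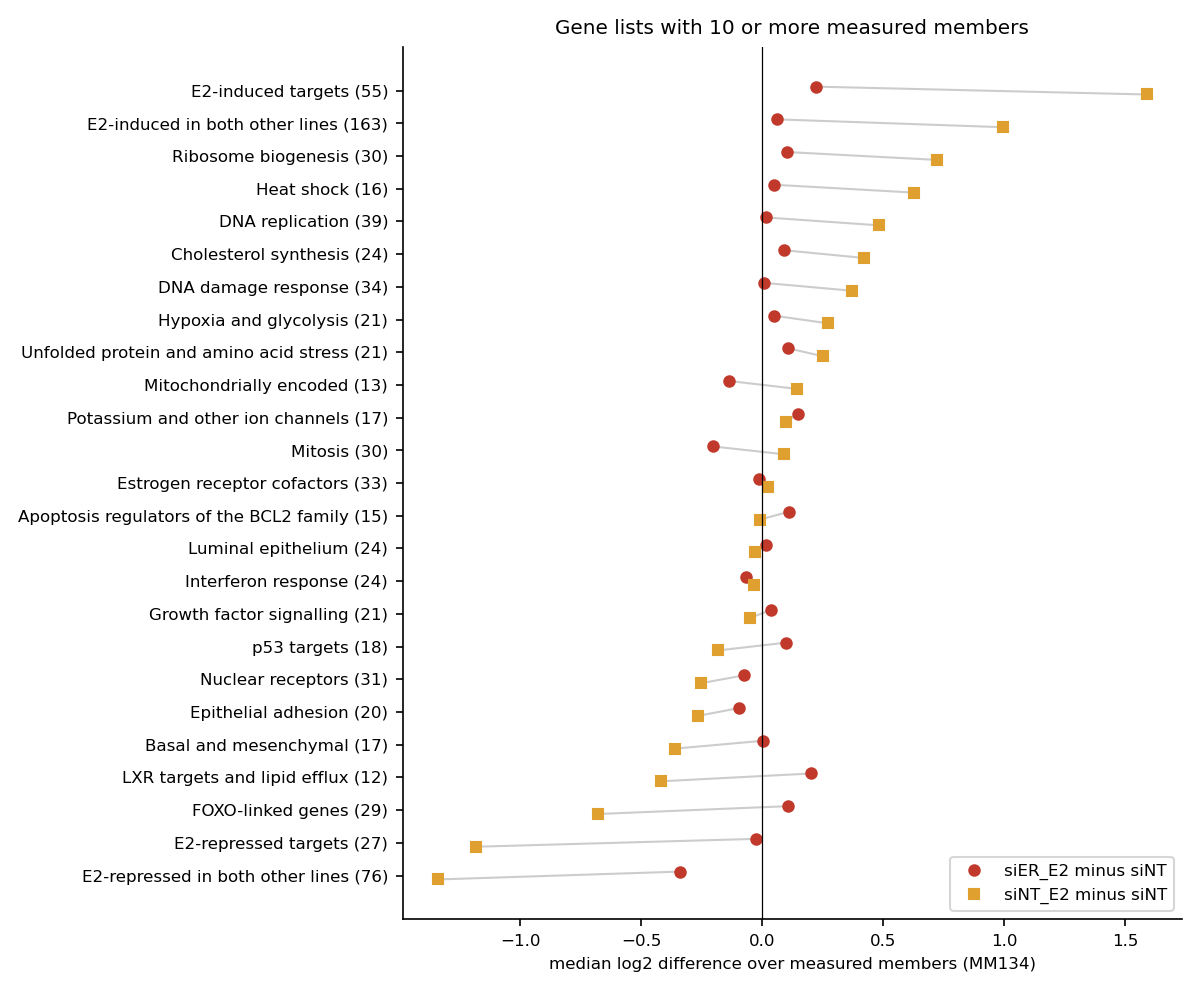
Median log2 difference over the measured members of each list with 10 or more of them (n in brackets) for siER_E2 minus siNT (circles) and siNT_E2 minus siNT (squares), which share the siNT libraries. Among the circles drawn, the genes repressed in both other lines at -0.34 and Mitosis at -0.20 lie farthest below 0.

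The largest differences lay largely outside the panel. Among protein-coding genes of at least 10 CPM in either group, 18 were 2-fold higher in siER_E2 and, besides ESR1, 35 were 2-fold lower. After TMCO1, the highest were FAM8A1, a membrane protein of the endoplasmic reticulum quality-control machinery, at 29.7, 31.2 and 30.7 CPM in siER_E2, 8.57, 7.66 and 9.46 CPM in siNT_E2, and 10.5, 11.2 and 12.4 CPM in siNT, and STC1, a secreted glycoprotein hormone, at 15.2, 17.5 and 17.3 CPM in siER_E2 and 5.34, 7.76 and 5.58 CPM in siNT. Their log2 differences were 1.43 (SE 0.067, adjusted p = 3.73e-13) and 1.4 (SE 0.12, adjusted p = 1.03e-08). FYCO1, an adaptor that moves autophagosomes, stood at 144, 142 and 143 CPM in siER_E2, 44, 41.6 and 39.5 CPM in siNT_E2, and 60.2, 57.2 and 58.3 CPM in siNT (log2 difference 1.29, SE 0.041, adjusted p = 5.25e-16). For the remaining 4 named genes the log2 differences were 1.25 for GNG12, a G protein gamma subunit, 1.18 for MLEC, a lectin of the endoplasmic reticulum, and 1.11 each for MBNL1, a splicing regulator, and OSTM1, a lysosomal chloride transport subunit. APP, the amyloid precursor protein, was the most abundant of the 18, at 839 ± 34 CPM in siER_E2, 332 ± 2.78 CPM in siNT_E2 and 405 ± 6.26 CPM in siNT (SD, n = 3 each).

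Most of these 18 genes were also higher with the siRNAs against FOXA1 and MDC1. In 16 of the 18 all 9 libraries with an siRNA against the receptor, FOXA1 or MDC1 lay above all 6 non-targeting libraries, beside 3.6% of all genes, although the siER_E2 and siNT libraries used to choose the genes are part of this count. The exceptions were GALNT7 and SLC16A1, and GALNT7 averaged 99.5 CPM in siER_E2, 33.4 CPM in siFOXA1_E2, 55.8 CPM in siMDC1_E2, 33.7 CPM in siNT_E2 and 49.2 CPM in siNT. In the libraries that were not used to choose them, all 6 siFOXA1_E2 and siMDC1_E2 libraries lay above all 3 siNT_E2 libraries for 17 of 18 genes, beside 17.6% of all genes. The mean of siFOXA1_E2 and siMDC1_E2 minus siNT_E2, a contrast added after the data were seen, was called higher for all 18 (26.5% of all genes). TMCO1 stood at 76.2, 81.4 and 77.5 CPM in siFOXA1_E2 and 88.2, 83.6 and 85.8 CPM in siMDC1_E2, beside 82.2 to 83.8 CPM in siER_E2. FAM8A1 likewise stood at 28.9, 29.2 and 29.8 CPM in siFOXA1_E2 and 30.7, 31.9 and 29.8 CPM in siMDC1_E2. The same siER_E2 minus siNT comparison called 16 of 18 higher in MM330 (8.66% of all genes). In HCC1428 it called 16 of 18 higher (11.7% of all genes) and STC1 lower. ESR1 was also lower in the siFOXA1_E2 and siMDC1_E2 libraries, and a shared effect of ESR1 loss and one of the siRNAs themselves cannot be told apart here.

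**Figure D5:**
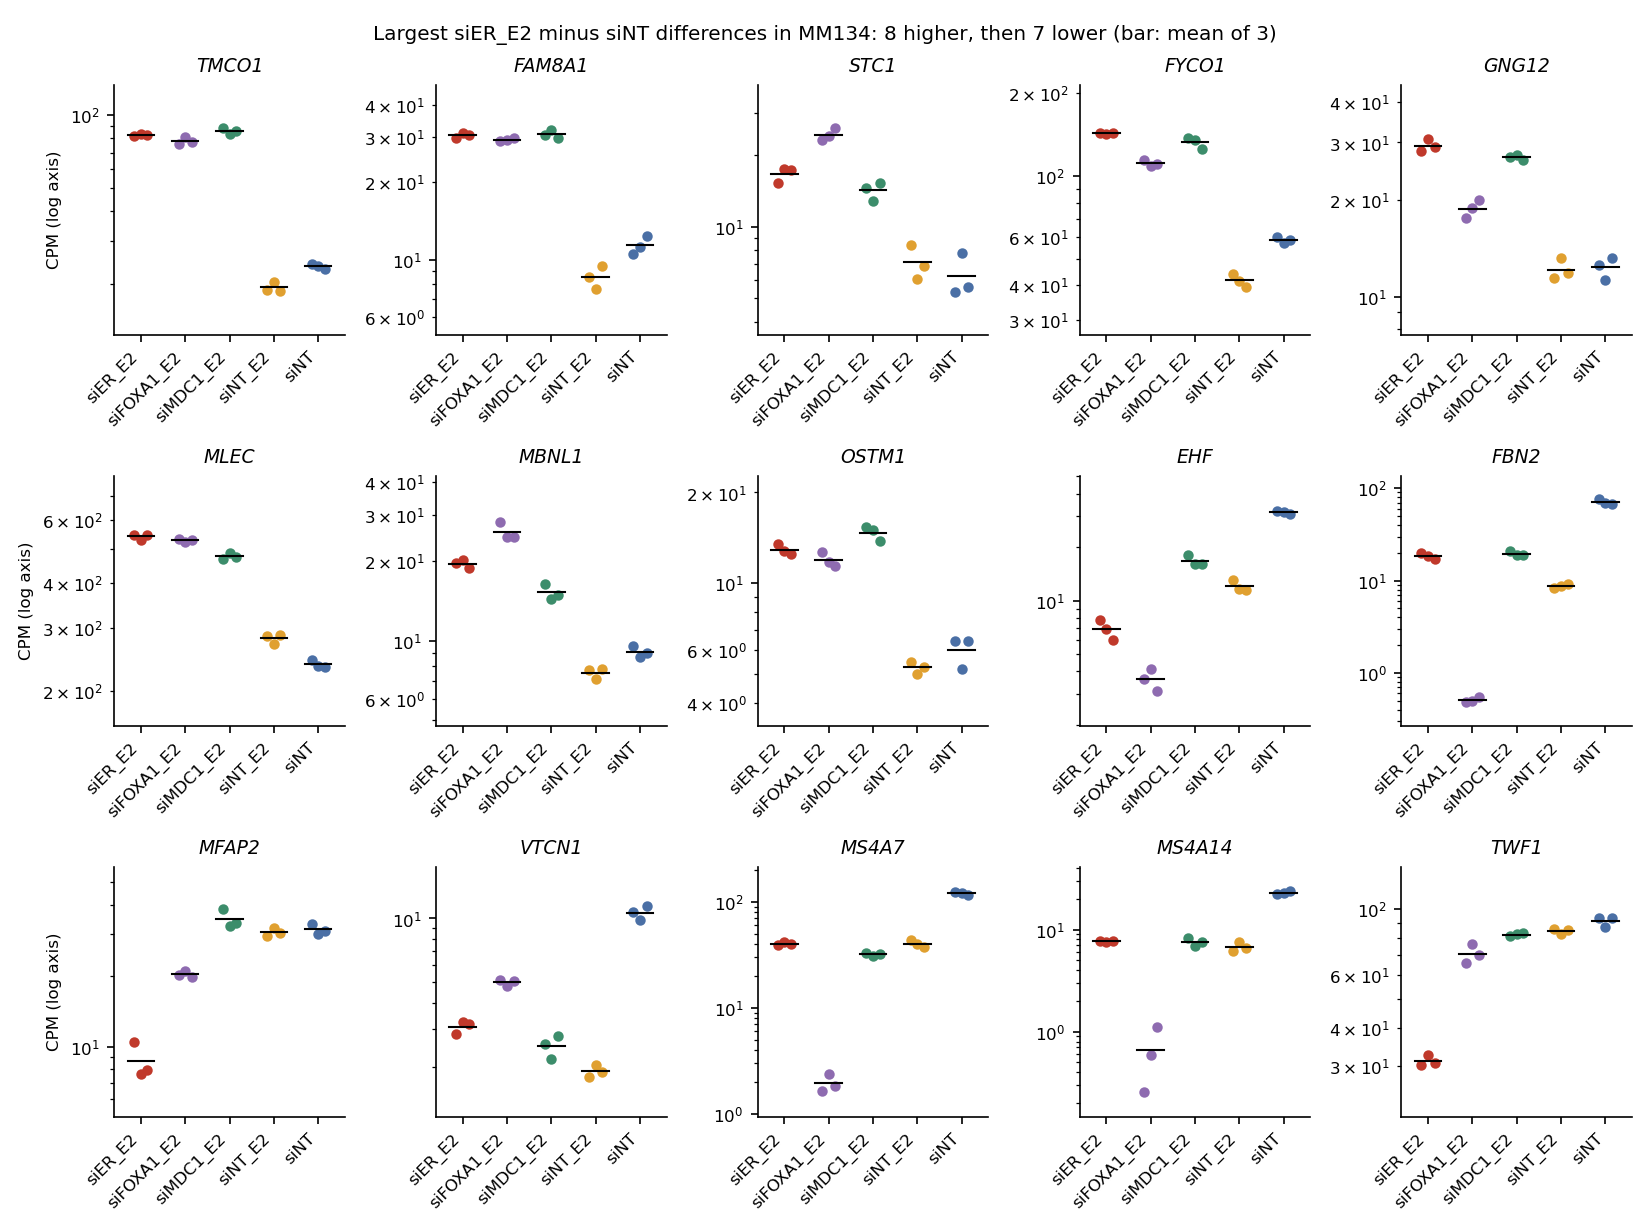
CPM (log axis) in each library of the 5 MM134 groups for the 8 genes with the highest and 7 with the lowest siER_E2 minus siNT difference (ESR1 left out), with a bar at the mean of 3 libraries. TMCO1 and FAM8A1 are alike in the 3 targeting groups and lower in siNT_E2 and siNT, whereas MFAP2 and TWF1 are lowest in siER_E2.

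The 35 lower genes fell into different patterns. In 16 of 36, counting ESR1, the siER_E2 libraries lay below all 12 other MM134 libraries. The siNT libraries used to choose the genes are among these 12, and ESR1 is the siRNA target, so nothing is read from the 3.76% of all genes that lay so. TWF1, an actin-monomer binding protein, stood at 30, 32.6 and 30.6 CPM in siER_E2, 66.1 to 76.4 CPM in siFOXA1_E2, 81.4 to 82.7 CPM in siMDC1_E2, 82.5 to 85.5 CPM in siNT_E2, and 93.3, 86.7 and 93.3 CPM in siNT (log2 difference -1.55, SE 0.048, adjusted p = 4.13e-16). MFAP2, a microfibril protein, stood at 10.4, 7.64 and 7.93 CPM in siER_E2, 29.6, 32.1 and 30.4 CPM in siNT_E2, and 33.3, 30.2 and 31 CPM in siNT (log2 difference -1.86, SE 0.088, adjusted p = 4.37e-13). ADAM10, a membrane protease, averaged 53.9 CPM in siER_E2, 110 CPM in siNT_E2 and 140 CPM in siNT, and USP14, a proteasome-bound deubiquitinase, 24.1, 70.6 and 56 CPM in the same groups. E2 moved TWF1 and MFAP2 little or not detectably, with log2 differences of -0.11 and -0.04. Both were lower in siER_E2 in the other lines too, TWF1 by log2 differences of -1.87 in MM330 and -0.77 in HCC1428, and MFAP2 by -2.98 and -1.11.

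Other lower genes were lowered by E2 as well. EHF, an epithelial transcription factor, stood at 7.76, 6.96 and 6.03 CPM in siER_E2, 13.1, 11.7 and 11.5 CPM in siNT_E2, and 32.1, 31.6 and 30.6 CPM in siNT (log2 difference -2.18, SE 0.092, adjusted p = 7e-14). FBN2, a fibrillin of extracellular microfibrils, stood at 19.8, 18.4 and 17 CPM in siER_E2, 8.29, 8.64 and 9.29 CPM in siNT_E2, and 76, 69.9 and 66.9 CPM in siNT. VTCN1, the immune checkpoint ligand B7-H4, stood at 2.85, 3.25 and 3.16 CPM in siER_E2, 1.78, 2.04 and 1.88 CPM in siNT_E2, and 10.7, 9.85 and 11.4 CPM in siNT. In FBN2 and VTCN1 the siER_E2 libraries lay between siNT_E2 and siNT, and in EHF below both. Over the 35 genes, 27 of 33 tested were lower in MM330 (11.5% of all genes) and 22 of 32 in HCC1428 (9.5%). None of them was higher in either line (8.66% and 11.7% of all genes). For these genes too, receptor loss and an effect of the siRNA itself cannot be told apart. The contrast of siFOXA1_E2 and siMDC1_E2 with siNT_E2 called 15 of the 35 higher and 14 lower (26.5% and 28% of all genes), so the lower genes had no common direction there.

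Compared with the whole transcriptome, both directions recurred in libraries of other lines. Of 2927 genes called higher in MM134 and tested in MM330, 838 were called higher there (28.6%, or 54.2% of the genes higher in MM330) and 137 lower, against 8.66% and 11.5% of all genes. Of 2971 tested in HCC1428, 970 were higher (32.6%, or 45.4% of those higher there) and 111 lower, against 11.7% and 9.5% of all genes. Of 2575 genes called lower in MM134 and tested in MM330, 1061 were lower (41.2%, or 51.5% of those lower there) and 74 higher. In HCC1428, 834 of 2568 were lower (32.5%, or 48% of those lower there) and 222 higher. The knockdown carries the same siER label in every line. Effects of receptor loss and of the siRNA itself therefore cannot be told apart in what recurred. ESR1 remained at 21.6 ± 3.81 CPM in MM330 siER_E2 against 289 ± 4.94 CPM in its siNT, and at 206 ± 8.16 against 551 ± 9.74 CPM in HCC1428 (SD, n = 3 each). The interaction called a different effect in MM134 for 1947 of 21447 genes against MM330 (9.08%) and for 2061 against HCC1428 (9.61%). With the libraries of the lower pseudogene share alone these counts were 1217 and 921.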

How the data were processed

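PolyA RNA was sequenced as stranded paired-end libraries, per the labels' protocols, and the authors deposited read counts per gene symbol. STAR 2.6.0a and the hg38 build are named in the submitters' processing notes; the counting tool, annotation and strand setting are not given in the sources used here, so overlapping genes are uncertain. From these counts, the 15 MM134 libraries (24.8 to 36.7 M counts) were fitted together in R 4.3.3 with edgeR 4.0.16: TMM scaling, edgeR's low-count filter by group, the quasi-likelihood test and Benjamini-Hochberg adjustment, called below 0.05. All adjusted p-values are from this test unless another tool is named. The other lines were fitted alike, and differences between lines were tested as interactions over all 45 libraries. DESeq2 1.42.0, limma 3.58.1 (voom), RLE scaling, no filter, the replicate number as a block, the compared libraries alone, each library left out and, added after seeing the data, the libraries with pseudogene shares below 0.248% were alternatives. Positions of genes come from GENCODE 29, matched by symbol for 56598 of 57353 symbols. Promoters are from RefSeq. 27 symbols altered to dates held 0.19% of the counts.

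The members and the 26 gene lists (594 genes) were chosen with earlier results of these data known. Genes named are the knockdown targets, a panel of 12, the 8 highest and 8 lowest called protein-coding differences of at least 10 CPM without overlap between groups, up to 4 called genes of each list by smallest p, the 4 least different of each estrogen list, and the 4 extremes of each set and line. AREG, MYBL1, APP, ADAM10, USP14, GALNT7, SLC16A1, ORC1, MCM6 and RRM1 were chosen after their values were seen. Some results are not reported here.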

Additional observations from a re-analysis of the deposited data

Results flagged for a closer look

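The siER_E2 minus siNT effect differed between MM134 and the other lines, by the interaction term over all libraries, for 1947 genes against MM330 and 2061 against HCC1428. The values below are log2 differences of the effects, MM134 minus the other line, with 3 libraries in each group.

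Against MM330 the effect was higher in MM134 for TFF1 (1.09), GREB1 (0.65), CCND1 (0.61), DEPP1 (1.2), CAPN6 (1.7), RBM24 (1.59) and STC1 (1.41). It was lower for EHF (-1.73), CLSTN2 (-1.71) and CIART (-1.58). In MM330, CAPN6, STC1, CLSTN2 and CIART had low levels, with means of 0.239 to 0.442 CPM in siER_E2 and 0.132 to 0.683 CPM in siNT. Each of these 4 calls was lost when certain single libraries were left out. CAPN6 was lost without MM330 siER_E2 replicate 2 or siNT replicate 3 (adjusted p = 0.0556 and 0.0926), CIART without MM330 siER_E2 replicate 2 or 3 or siNT replicate 3 (0.172, 0.0586 and 0.123), STC1 without any 1 of 6 libraries (0.0589 to 0.313), and CLSTN2 without any 1 of 7 (0.05 to 0.216). Under limma-voom TFF1 (adjusted p = 0.171, and 0.0931 against HCC1428), STC1 (0.125), CLSTN2 (0.162) and CIART (0.0721) lost their calls. With the lower pseudogene share STC1 (0.114), CLSTN2 (0.303) and CIART (0.0987) lost theirs. STC1 was also lost with the replicate block (0.065) and with only the compared libraries (0.0625). In MM330, TFF1 averaged 295 CPM in siER_E2 and 190 CPM in siNT.

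Against HCC1428 the effect was higher in MM134 for STC2 (2.12), STC1 (1.8), GPAT3 (1.53), MYC (0.73), CCND1 (0.68) and TMCO1 (0.63). It was lower for FBN2 (-2.3), EHF (-2.1), NEK2 (-2.07), PDZK1 (-1.63), TFF1 (-1.26) and RET (-0.42). In HCC1428, where 206 CPM of ESR1 remained in siER_E2, TFF1 averaged 327 CPM in siER_E2 and 42.3 CPM in siNT. EHF averaged 29.3 CPM in siER_E2 and 31.4 CPM in siNT of HCC1428. With the lower pseudogene share alone, GPAT3 had a difference of 0.73 and was not called (adjusted p = 0.682). The part of the remaining receptor in these differences was not tested.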

How the results depend on the processing

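The number of genes called, 5740, was 4914 to 5391 with single libraries left out and 5231 to 5776 under the other settings, including 5683 with the replicate block. Same-numbered libraries did not deviate together (correlations of -0.012 to 0.021), so the block is only a sensitivity check. The 143 genes 2-fold higher became 447 with no filter, 94 with DESeq2, 95 with the lower pseudogene share and 90 to 307 with single libraries left out. The higher members of the set repressed in both other lines, 2, became 1 with no filter, DESeq2, the replicate block, only the compared libraries or the lower pseudogene share, and 1 to 2 with single libraries left out. With a 1.5-fold cut in the other lines, the induced set gave 126 higher and 109 lower genes and the repressed set 26 higher and 95 lower. The higher E2-repressed targets, 9, were 5 to 7 with single libraries left out. With the lower pseudogene share the differences between lines numbered 1217 against MM330 and 921 against HCC1428. The causes were not tested. Of the values of named genes for siER_E2 minus siNT, 799 kept their side of the threshold, 20 lost a call and 6 gained one. No value called in either setting changed direction. Changes of direction among values called in neither setting were not counted.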
